A study of Mus musculus with 4 samples.

Results

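The genes described here are nuclear genes that mostly encode subunits of ATP synthase and of respiratory complexes II, III and IV. They were chosen by symbol alone: every listed gene that begins with Atp5, Uqcr, Cox4, Cox5, Cox6, Cox7 or Cox8, together with Sdha, Sdhb, Sdhc, Sdhd and Cyc1, and without predicted genes. The choice left 47 of the 26172 genes listed in the 2 libraries: 18 of ATP synthase, 4 of complex II, 9 of complex III and 16 of complex IV. These counts take in Atp5if1, an inhibitor of ATP hydrolysis by ATP synthase, and Cox7a2l, which takes part in assembling supercomplexes. A pseudogene, Cox5b-ps, was left out.

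These complexes sit in the inner mitochondrial membrane. Complex II, succinate dehydrogenase, oxidises succinate in the citric acid cycle and passes its electrons to ubiquinone. Complex III hands electrons from ubiquinol to cytochrome c, and complex IV, cytochrome c oxidase, hands them to oxygen. Complexes III and IV pump protons as they do so, and ATP synthase lets the protons back through a rotating ring of c subunits to make ATP. The mitochondrial genome encodes the catalytic subunits of complex IV, the cytochrome b of complex III and the a and A6L subunits of ATP synthase. The genes described here are nuclear, so ATP synthase and complexes III and IV, but not complex II, are built from RNA made in separate compartments.

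The libraries came from MC38 tumours, which grow from a mouse colon carcinoma cell line, 20 days after implantation into mice of 10 weeks. The FOXP3 humanized library and the WT library are each 1 droplet cDNA library of cells isolated on Percoll, with no treatment in either. The labels do not describe how the FOXP3 locus was humanized or how many tumours were pooled. The 2 oligo libraries that the labels also name were not analysed here. With 1 library per genotype there is no test between genotypes, and library and genotype cannot be told apart. All intervals below are exact 95% intervals that cover counting error only.

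Barcodes were described in 2 classes. T barcodes held fewer than 5000 UMIs, each UMI marking 1 captured RNA molecule, and at least 1 UMI of Cd3e, Cd3d or Cd3g. Deep barcodes held at least 5000 UMIs and none of these genes or of Ptprc, which encodes the pan-leukocyte antigen CD45. The FOXP3 humanized library had 155 T and 9671 deep barcodes of 11087, and the WT library had 96 T and 6705 deep barcodes of 7691. Median depth was 1587 and 1700.5 UMIs in T barcodes of the FOXP3 humanized and the WT library, and 12522 and 16866 UMIs in their deep barcodes. A list of 10 T cell markers summed to 5937 and 7415 UMIs per 1000000 UMIs of the class (CPM) in T barcodes of the FOXP3 humanized and WT libraries. In their deep barcodes it summed to 2.62 and 2.72 CPM. The labels call the samples immune cells, yet a list of 8 myeloid markers reached only 5.17 and 5.37 CPM in deep barcodes, and 6 epithelial markers, such as Krt8, Krt18 and Cdh1, only 3.12 and 5.99 CPM. A list of 7 fibroblast markers stood higher in deep barcodes, at 215 CPM in the FOXP3 humanized and 176 CPM in the WT library. Of these 7, 6 and 7 had UMIs. A list of 7 regulatory T cell markers stood at 80.4 and 59.4 CPM. No cell type was assigned from these lists, and deep barcodes are called by their rule and not by a cell type. The files share 1551 barcode names between libraries, which are serial names and not sequences.

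Promoters of these genes are classically known for sites of NRF1 and of ETS-family factors such as GABP, which are activators of nuclear genes for respiration. RefSeq promoter windows of build GRCm38.p6, which run from 250 bases before to 50 bases after a start, were found for 35 members. The deposited counts use another build, GRCm39, so these coordinates belong to the RefSeq windows only. Searched on both strands, the NRF1 letters (GCGCA, then any base, then GCGC) stood in the windows of 11 of the 35 members, which is 31.4%, against 5.19% of the 27025 gene symbols in the table. The ETS letters CCGGAAG stood in 13 members, which is 37.1%, against 9.93% of all symbols. The YY1 letters AAGATGGCG stood in 2 members, or 5.71%, against 1.64%. At least one of these 3 motifs was present in 21 members, which is 60.0%, against 15.1% of all symbols. These background shares cover all 27025 symbols, not only genes expressed here, and windows were not matched for base content. Whether the shares are particular to these genes was therefore not tested. None of these 3 letter strings holds another within it, but they can share bases at their ends.

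The windows below belong to members that the results turn on: Uqcrc1, the member past the threshold for higher in the FOXP3 humanized deep barcodes; Uqcrh, the member with the highest ratio of T to deep barcodes; and Cox7c, Atp5pb, Atp5mc2 and Atp5mg, which were lower in the FOXP3 humanized library. Each is printed on the strand of its gene, and capitals mark NRF1 or ETS letters on either strand. Uqcrc1 lies at chr9:108936398-108936697 (plus strand), Uqcrh at chr4:116075021-116075320, Atp5mc2 at chr15:102670998-102671297, Atp5mg at chr9:44920693-44920992, Cox7c at chr13:86046746-86047045 and Atp5pb at chr3:105959214-105959513 (minus strand for these 5). Each window holds 300 bases.
Uqcrc1: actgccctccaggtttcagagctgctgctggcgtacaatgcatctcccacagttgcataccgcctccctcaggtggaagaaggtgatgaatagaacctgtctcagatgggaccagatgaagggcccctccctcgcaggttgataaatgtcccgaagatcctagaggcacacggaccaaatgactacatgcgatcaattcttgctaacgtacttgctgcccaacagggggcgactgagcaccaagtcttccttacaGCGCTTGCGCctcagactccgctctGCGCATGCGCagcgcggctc
Uqcrh: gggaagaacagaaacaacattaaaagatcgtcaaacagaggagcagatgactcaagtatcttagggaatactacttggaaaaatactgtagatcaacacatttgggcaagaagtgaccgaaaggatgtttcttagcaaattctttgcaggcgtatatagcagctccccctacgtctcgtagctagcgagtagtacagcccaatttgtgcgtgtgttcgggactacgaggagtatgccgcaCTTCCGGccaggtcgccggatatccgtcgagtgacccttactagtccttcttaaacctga
Atp5mc2: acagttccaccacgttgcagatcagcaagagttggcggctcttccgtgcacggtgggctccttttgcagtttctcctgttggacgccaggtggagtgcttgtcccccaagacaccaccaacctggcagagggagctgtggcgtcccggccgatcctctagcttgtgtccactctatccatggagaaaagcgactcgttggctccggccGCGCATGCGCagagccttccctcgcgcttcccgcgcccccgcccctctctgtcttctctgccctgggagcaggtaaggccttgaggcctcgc
Atp5mg: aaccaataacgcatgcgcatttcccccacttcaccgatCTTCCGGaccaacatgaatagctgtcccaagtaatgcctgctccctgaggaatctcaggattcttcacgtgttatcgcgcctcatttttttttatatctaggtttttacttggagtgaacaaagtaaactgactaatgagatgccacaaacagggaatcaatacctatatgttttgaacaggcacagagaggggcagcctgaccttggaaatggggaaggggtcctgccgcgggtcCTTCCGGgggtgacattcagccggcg
Cox7c: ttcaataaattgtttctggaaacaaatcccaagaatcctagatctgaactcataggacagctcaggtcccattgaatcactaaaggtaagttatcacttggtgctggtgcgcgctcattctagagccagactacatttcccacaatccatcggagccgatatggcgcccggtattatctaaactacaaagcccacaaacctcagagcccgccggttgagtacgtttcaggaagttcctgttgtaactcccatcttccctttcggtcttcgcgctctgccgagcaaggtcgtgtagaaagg
Atp5pb: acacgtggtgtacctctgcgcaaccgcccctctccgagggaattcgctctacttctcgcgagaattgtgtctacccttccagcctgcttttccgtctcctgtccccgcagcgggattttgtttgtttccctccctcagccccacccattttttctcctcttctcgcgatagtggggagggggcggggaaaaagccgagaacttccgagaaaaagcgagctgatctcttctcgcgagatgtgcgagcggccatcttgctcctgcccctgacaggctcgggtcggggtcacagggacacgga
The Uqcrc1 window holds 2 NRF1 matches and the Atp5mc2 window 1. The Uqcrh window holds 1 ETS match and the Atp5mg window 2. The Cox7c and Atp5pb windows hold none of the 3 letter strings, which says only that these letters are not in those windows. Members that were lower in the FOXP3 humanized library thus stood both among those with and among those without a match.

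Summed over all 47, the members made up 11452 CPM (interval 11059 to 11855) in T barcodes of the FOXP3 humanized library and 13461 CPM (12938 to 13999) in T barcodes of the WT library. In deep barcodes the sums were 12900 CPM (12882 to 12919) in the FOXP3 humanized library and 14325 CPM (14304 to 14345) in the WT library. ATP synthase gave 5832 CPM in FOXP3 humanized and 6309 CPM in WT deep barcodes, complex IV 4485 and 5146 CPM, complex III 2170 and 2452 CPM, and complex II 413 and 417 CPM, in the same order of libraries. A UMI is a count of captured molecules, and none of these levels is divided by transcript length, so they are not compared between genes beyond isoforms of 1 subunit.

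Isoform pairs showed which versions of a subunit the barcodes carried. Cox4i1, the common isoform of subunit 4, stood at 925 CPM in FOXP3 humanized and 849 CPM in WT deep barcodes. Its counterpart Cox4i2, known from lung and from hypoxic cells, had 5 UMIs in FOXP3 humanized and 11 UMIs in WT deep barcodes. Cox6b2 and Cox8c, known as testis isoforms, had 0 and 2 UMIs and 2 and 0 UMIs in FOXP3 humanized and WT deep barcodes, where a limit of 3 counts corresponds to 0.0213 and 0.0232 CPM. The heart and muscle isoforms Cox6a2 and Cox7a1 were present at a low level: Cox6a2 at 4.07 and 8.33 CPM and Cox7a1 at 4.97 and 6.74 CPM. Cox6a1 and Cox7a2, the common isoforms, stood at 190 and 196 CPM and at 320 and 352 CPM. Cox6b1 stood at 207 and 236 CPM and Cox8a at 784 and 866 CPM in FOXP3 humanized and WT deep barcodes. The c subunit of the proton ring is encoded by a trio of genes with the same mature protein, of which Atp5mc1 had 323 and 320 CPM, Atp5mc3 254 and 297 CPM, and Atp5mc2 26.6 and 50.7 CPM. No UMI of Cox4i2, Cox6b2 or Cox8c was found in T barcodes, and Cox6a2 had 0 and 1 and Cox7a1 1 and 3 UMIs there, in the FOXP3 humanized and WT libraries, a depth too low to compare. Fewer than 20 UMIs over both libraries' deep barcodes kept Cox4i2, Cox6b2 and Cox8c out of the comparisons, which left 44 members.

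**Figure D1:**
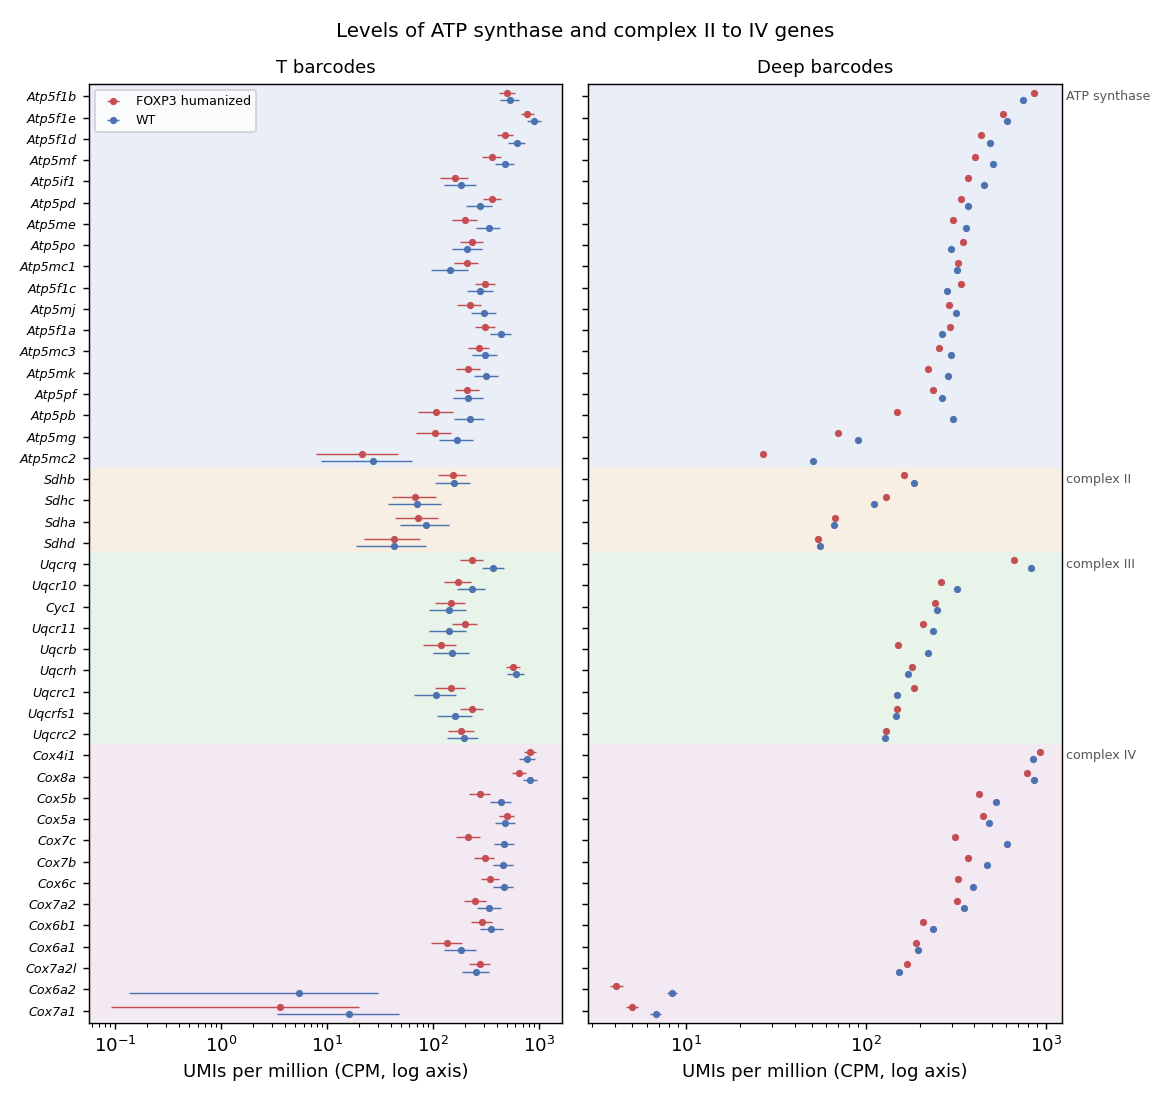
Level of each member, in CPM on a log axis, in T barcodes (left) and deep barcodes (right) of the FOXP3 humanized (red) and WT (blue) library, grouped by complex, with exact 95% counting intervals; genes at 0 are not drawn. Cox6a2 and Cox7a1 sit below 10 CPM in deep barcodes, while Cox7c and Atp5pb stand apart between the libraries in both panels.

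In deep barcodes, the summed level of the members was lower in the FOXP3 humanized than in the WT library, by a log2 ratio of -0.15 (interval -0.15 to -0.15). By complex, it was -0.20 for complex IV, -0.18 for complex III, -0.11 for ATP synthase and -0.01 (interval -0.03 to 0.00) for complex II. These ratios are small beside a shift of all genes: the median log2 ratio was -0.16 over the 44 members and -0.24 over all 17134 genes with at least 20 UMIs. Counted as beyond 0.32 on the log2 scale in either direction with an interval that leaves out 0, 10 of 44 members were lower and 1 was higher, while 31.2% of all genes were lower and 1.89% higher. Among genes with at least 10000 UMIs, 8 of 42 members were lower against a background of 13.5%, and 1 was higher against 2.21%. The share of members called lower was therefore below that of all genes with 20 UMIs, and above that of genes with 10000 UMIs. The medians turned in the same way: at 10000 UMIs the median log2 ratio was -0.14 over the 42 members and -0.09 over 3080 genes. With edgeR's trimmed mean scaling, which adds 0.24 to every ratio, the summed ratio of the members turned to 0.09, all 4 complexes had positive ratios, and 8 members were higher and 4 lower, against 9.12% and 12.9% of all genes under that scaling.

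A group of 4 members stood furthest from the rest, and all 4 remained past the threshold under that scaling. Atp5pb encodes the b subunit of the stalk that holds ATP synthase still, and it had 148 CPM (20807 UMIs) in FOXP3 humanized and 305 CPM (39404 UMIs) in WT deep barcodes, a log2 ratio of -1.04 (interval -1.07 to -1.02). Cox7c, a small subunit of complex IV, had 311 and 605 CPM in the same libraries, a log2 ratio of -0.96 (-0.98 to -0.94). Atp5mc2 had a log2 ratio of -0.93 (-0.99 to -0.87). Cox6a2, the muscle isoform, rested on 572 and 1076 UMIs and had a log2 ratio of -1.03 (-1.18 to -0.89). The 4 ratios correspond to 1.91-fold to 2.06-fold lower levels, in highly and in poorly expressed genes alike. Set against the median gene, their ratios were -0.81 for Atp5pb, -0.80 for Cox6a2, -0.72 for Cox7c and -0.69 for Atp5mc2.

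These ratios were similar over ranges of barcode depth. In deep barcodes of 5000 up to 10000, 10000 up to 20000 and at least 20000 UMIs, the log2 ratio of Atp5pb was -1.04, -1.01 and -1.04. Cox7c gave -0.98, -0.97 and -0.96 and Atp5mc2 gave -1.02, -0.90 and -0.94 over the same ranges of depth. Cox6a2 gave -0.90 (-1.33 to -0.46), -0.94 (-1.17 to -0.71) and -1.18 (-1.42 to -0.95). The summed members gave -0.14, -0.13 and -0.14, although the FOXP3 humanized library held 3395, 4403 and 1873 such barcodes and the WT library 1328, 2838 and 2539.

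Another 6 members were past the threshold in the lower direction by smaller amounts. Uqcrb, a small subunit of complex III, had 150 CPM in FOXP3 humanized and 221 CPM in WT deep barcodes, a log2 ratio of -0.56 (-0.58 to -0.53). Cox7a1 had a log2 ratio of -0.44 (-0.58 to -0.29). Small membrane subunits of ATP synthase were among them, with Atp5mk at -0.37 (-0.39 to -0.35), Atp5mg at -0.36 (-0.40 to -0.32) and Atp5mf at -0.33 (-0.34 to -0.31). The complex IV subunit Cox7b gave -0.34 (-0.36 to -0.32). Against the median gene these 6 ratios lay between -0.32 for Uqcrb and -0.09 for Atp5mf, and trimmed mean scaling took all 6 below the threshold.

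The single member past the threshold in the other direction was Uqcrc1, which encodes a core protein of complex III. It had 186 CPM (26153 UMIs) in FOXP3 humanized and 148 CPM (19087 UMIs) in WT deep barcodes, a log2 ratio of 0.33 (0.31 to 0.36), and its ratio was 0.39, 0.40 and 0.28 over the 3 ranges of depth. In ATP synthase, Atp5f1c, the γ subunit of the central shaft, lay on the same side of 0 at 0.27, as did Atp5po, which joins the stalk to the catalytic head, at 0.23, Atp5f1b, the catalytic β subunit, at 0.21 and Atp5f1a, the α subunit, at 0.14. The other subunits of the central shaft lay below 0, with Atp5f1d, the δ subunit, at -0.17 and Atp5f1e, the ε subunit, at -0.08. Sdhc, a membrane anchor of complex II, gave 0.21, Cox7a2l, which takes part in assembling supercomplexes, 0.15 and Cox4i1 0.12. These 8 genes, Uqcrc1 included, are those past the threshold in the higher direction with trimmed mean scaling. Some other members had ratios near 0. Sdha, the flavoprotein of complex II, gave 0.00 (66.8 and 66.6 CPM) and the Rieske protein Uqcrfs1 0.00 (148 CPM in each library). The core protein Uqcrc2 gave 0.03 and cytochrome c1, Cyc1, -0.04. Sdhb, the iron-sulfur subunit of complex II, gave -0.17, Cox5a -0.12 and Atp5if1, the inhibitor of ATP hydrolysis by ATP synthase, -0.30. The remaining members not named here lay between -0.32 (Uqcrq) and 0.07 (Uqcrh).

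**Figure D2:**
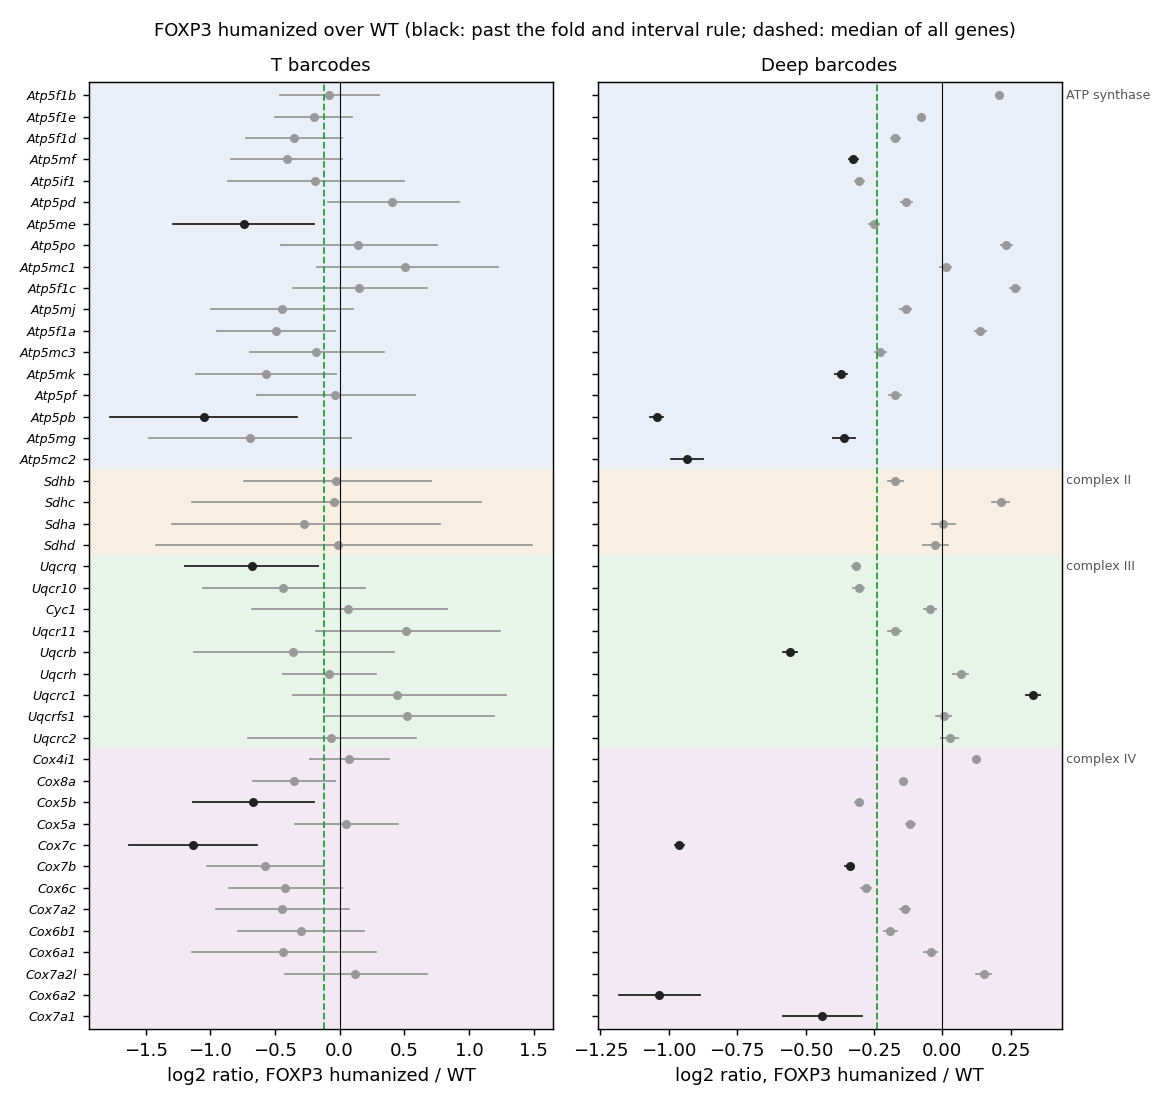
Log2 ratio of FOXP3 humanized over WT for each member with its exact 95% counting interval, in T barcodes (left) and deep barcodes (right); black marks members past the fold and interval rule and the dashed line is the median of all genes. In deep barcodes Atp5pb, Cox7c, Atp5mc2 and Cox6a2 sit near -1 while most members lie within 0.4 of 0.

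The order of the members tracked the length of their coding sequence, taken as the longest coding length in GENCODE M21. The 17 members of up to 300 coding bases had a median log2 ratio of -0.28 between the FOXP3 humanized and WT deep barcodes. The 16 members of over 300 and up to 600 bases had a median of -0.15 and the 11 longer members a median of 0.03. The Spearman correlation of coding length with the ratio, across 44 genes of the same libraries and given as a description, was 0.56, and it was 0.65 over the 35 members with no near-identical copy. Over 2947 genes with at least 10000 deep UMIs the correlation was -0.03, with medians of -0.18, -0.11 and -0.07 in the same classes of length. In T barcodes the correlation was 0.45 over 41 members and 0.16 over 2039 genes. The part of transcript length in this order was not tested.

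**Figure D3:**
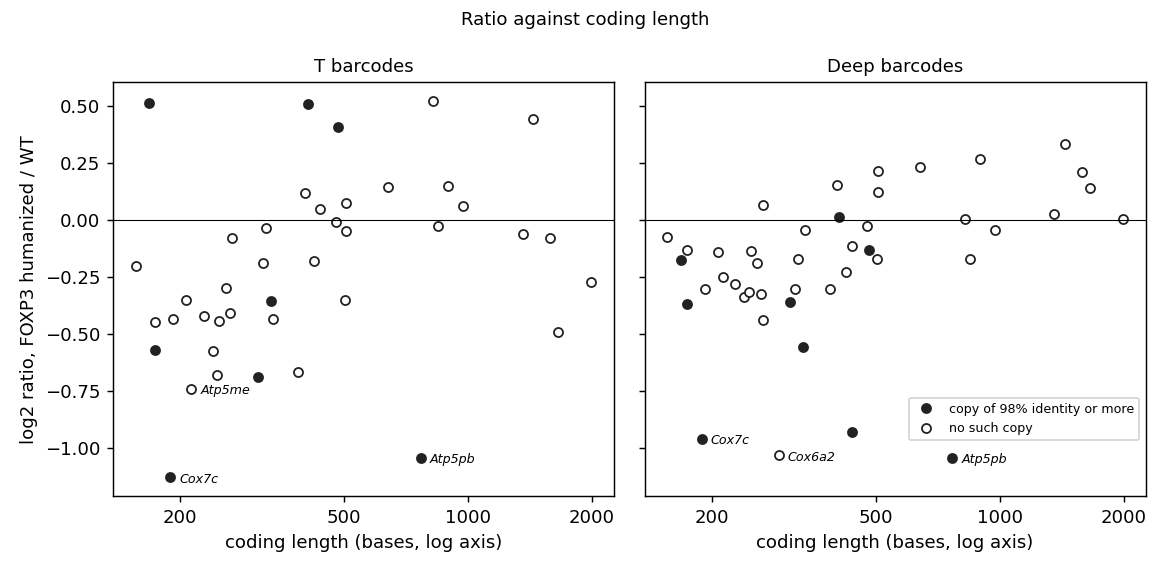
Log2 ratio of FOXP3 humanized over WT against coding length on a log axis, each point a member, in T barcodes (left) and deep barcodes (right); filled points have a pseudogene copy of at least 98% identity. In deep barcodes, members over 600 bases lie between -0.17 and 0.33 except Atp5pb, and members of up to 300 bases lie below 0 except Uqcrh.

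Many of these genes have processed pseudogenes, whose sequence reads can match as well as the gene. A search of the GENCODE M21 transcripts found 61 copies of at least 90% identity, from genes annotated there with a pseudogene transcript, for 21 of the 47 members, and none of the 61 is listed in the files. The 9 members with a copy of at least 98% identity were Atp5mc1, Atp5mc2, Atp5mg, Atp5mk, Atp5pb, Atp5pd, Cox7c, Uqcr11 and Uqcrb. Their median log2 ratio in deep barcodes was -0.37, and 6 of the 9 were past the threshold for lower. Of all genes 31.2% were lower, and 13.5% of genes with at least 10000 UMIs, a depth that all 9 reached. The 12 members with copies of 90 to 98% identity had a median of -0.18 with 1 lower, and the 26 members with none had a median of -0.13 over the 23 compared, with 3 lower and 1 higher. Cox5b is counted among these 26, although Cox5b-ps, which is listed in the files and which RefSeq types as a pseudogene, matched it at 94.4% over 410 bases. GENCODE M21 types that locus as protein coding, under the symbol Gm11273. Cox7c matched Gm12338 at 100% over 192 bases, Atp5mc2 matched Gm10231 at 100% over 441 bases and Atp5pb matched Gm12231 at 98.7% over 696 bases. Counts of these 9 members are therefore uncertain, since the counting of reads with several matches is not stated, and its part in the ratios was not tested. Of the 3 lower members with no copy found, Cox6a2 had the lowest ratio, -1.03, on 572 UMIs in FOXP3 humanized and 1076 in WT deep barcodes.

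Genes that work with the members mostly had small negative ratios in deep barcodes. Of assembly factors, 1 of 6 for ATP synthase, 1 of 4 for complex II, 5 of 9 for complex III and 9 of 23 for complex IV were lower and 0 were higher, against the same 31.2% and 1.89%. Among them Cox16 had a log2 ratio of -0.78, Cox20 of -0.60 and Cox17, a copper chaperone, of -0.44. Of 10 regulators of mitochondrial gene expression compared, 1 was lower, Pprc1, a coactivator related to PGC-1, at -0.47, while Nrf1 gave -0.03, Gabpa -0.17 and Tfam -0.21. Ppargc1a, the coactivator PGC-1α, had 1 UMI in each library's deep barcodes. Of 9 carriers and neighbours, 1 was lower, Cycs, which encodes cytochrome c, at -0.41, and the ADP/ATP carrier Slc25a4 gave 0.17. The 39 complex I subunits had a median of -0.17, with 8 lower and 0 higher.

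The mitochondrially encoded partners of the same complexes stood at 1341 CPM in FOXP3 humanized and 1777 CPM in WT deep barcodes, and 4 of the 6 were lower, beside 31.2% of all genes. The log2 ratio was -1.56 for mt-Atp8 (830 and 2249 UMIs), -0.51 for mt-Co1, -0.43 for mt-Co2 and -0.39 for mt-Atp6. It was -0.31 for mt-Co3 and -0.18 for mt-Cytb. The coding sequences of mt-Atp8 and mt-Atp6 overlap, so their counts cannot be fully separated. Beside these, 13 glycolysis genes summed to 15681 CPM in FOXP3 humanized and 12568 CPM in WT deep barcodes, with 4 higher, among them Pkm at 0.43 and Gapdh at 0.41, and 2 lower, beside 1.89% and 31.2% of all genes. Cytosolic ribosomal protein genes took 35.0% of the UMIs of FOXP3 humanized and 33.0% of WT deep barcodes. The part of these shares in the members' ratios was not tested.

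In T barcodes, the members summed to a log2 ratio of -0.23 (interval -0.31 to -0.16) between the FOXP3 humanized and WT libraries. The sums rest on 3206 and 2496 UMIs, so single genes are far less precise than in deep barcodes. The 41 members that reached 20 UMIs were compared: 5 had a ratio of 1.5-fold or more in the lower direction with an interval below 0, against 5.87% of all 3388 genes, and 0 were higher, against 2.54%. The median was -0.20 over the members and -0.12 over all genes. With trimmed mean scaling, which adds 0.18 to every ratio, 2 members were lower, Cox7c and Atp5pb, and 3 were higher, Atp5mc1, Atp5pd and Uqcrfs1, against 3.22% and 5.61% of all genes. By complex the summed ratios were -0.32 (interval -0.45 to -0.19) for complex IV, -0.23 (-0.35 to -0.12) for ATP synthase, -0.07 (-0.26 to 0.12) for complex III and -0.08 (-0.55 to 0.39) for complex II.

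Cox7c and Atp5pb had the lowest ratios in T barcodes. Cox7c had 60 UMIs (214 CPM) in FOXP3 humanized and 87 UMIs (469 CPM) in WT T barcodes, a log2 ratio of -1.13 (-1.63 to -0.64), beside -0.96 in deep barcodes. Atp5pb had 30 UMIs (107 CPM) and 41 UMIs (221 CPM), a ratio of -1.04 (-1.77 to -0.33), beside -1.04 in deep barcodes. Both classes come from the same 2 libraries, so these are not independent measurements of the genotype. The other members past the threshold were Atp5me, a membrane subunit of ATP synthase, at -0.74 (-1.29 to -0.20), Uqcrq, a small subunit of complex III, at -0.68 (-1.19 to -0.17), and Cox5b, a zinc-binding subunit of complex IV, at -0.67 (-1.14 to -0.20). Atp5mg, at -0.69, was as low but did not pass the rule, and Cox7b at -0.58 and Atp5mk at -0.57 did not reach its fold. Atp5mc2, with 6 and 5 UMIs, could not be compared. Beside these ratios, ribosomal protein genes took 29.3% of UMIs in FOXP3 humanized and 25.3% in WT T barcodes, and 7 fibroblast markers summed to 57.2 CPM (16 UMIs, 4 of 7 markers) and 21.6 CPM (4 UMIs, 3 of 7 markers). Endothelial markers summed to 53.6 CPM (15 UMIs, 1 of 4 markers) and 140 CPM (26 UMIs, 2 of 4 markers), with Cdh5 and Kdr at 0 in both libraries. B cell markers summed to 28.6 CPM (8 UMIs) and 5.39 CPM (1 UMI), with Cd79a and Ms4a1 at 0. The part of these shares and markers in the ratios was not tested. Epithelial markers had 1 UMI in each library's T barcodes, with Krt8, Krt18, Krt7, Krt19 and Cdh1 at 0.

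Between the classes, the members summed to less in T than in deep barcodes of the same library, by a log2 ratio of -0.17 (interval -0.22 to -0.12) in the FOXP3 humanized and -0.09 (-0.15 to -0.03) in the WT library. At least 1.5-fold in the same direction in both libraries, 2 members were higher in T barcodes and 4 were lower, against 10.2% and 5.02% of 17321 genes. All 6 were among the 42 members with at least 10000 deep UMIs, where 9.64% of 3080 genes were higher and 26% lower. Over genes with at least 10000 deep UMIs the median log2 ratio was -0.41 in the FOXP3 humanized and -0.44 in the WT library, and over the 42 members of that depth it was -0.23 and -0.10. With trimmed mean scaling, which moves every ratio by -0.50 in the FOXP3 humanized and -0.52 in the WT library, 1 member was higher and 20 were lower, against 4.9% and 48.7% of these 3080 genes.

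Uqcrh, the hinge protein of complex III, was the furthest from the rest, and it has pseudogene copies of 90 to 98% identity. It had 572 CPM in T barcodes and 180 CPM in deep barcodes of the FOXP3 humanized library, a log2 ratio of 1.67 (1.44 to 1.89), and 604 and 172 CPM in the WT library, a ratio of 1.82 (1.53 to 2.08). Cox7a2l had 275 CPM in T and 169 CPM in deep barcodes of the FOXP3 humanized library (0.70) and 253 and 152 CPM in the WT library (0.73). It was the other member past the threshold for higher in both libraries, and this call ended with trimmed mean scaling, with scaling that leaves out mitochondrial and ribosomal protein UMIs, and with at least 2 CD3 UMIs per T barcode. Below the threshold or past it in 1 library only, Atp5mg gave 0.56 and 0.89, Uqcrc2 0.52 and 0.61, Cox6b1 0.48 and 0.59, and Atp5f1e, the ε subunit of ATP synthase, 0.43 and 0.56 in the FOXP3 humanized and WT libraries. All 4 of these had intervals above 0 in the WT library and, except Atp5mg, in the FOXP3 humanized library.

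The lowest ratio belonged to Uqcrq, another small subunit of complex III, with 232 CPM in T and 668 CPM in deep barcodes of the FOXP3 humanized library (-1.53, interval -1.90 to -1.17) and 372 and 832 CPM in the WT library (-1.16, -1.52 to -0.82). Atp5if1 had 161 CPM in T and 370 CPM in deep barcodes of the FOXP3 humanized library (-1.20) and 183 and 456 CPM in the WT library (-1.32). Subunits of 1 complex thus stood on opposite sides: Uqcrh above and Uqcrq below, both in complex III. Cyc1 gave -0.72 and -0.82, and the c-subunit gene Atp5mc1 gave -0.64 and -1.14, while its counterpart Atp5mc3 gave 0.10 and 0.05. Atp5f1b gave -0.78 and -0.49 and Atp5po -0.58 and -0.49, and neither was past the threshold in both libraries. Cox4i1 and Cox5a, both in complex IV, differed little, at -0.18 and -0.13 and at 0.15 and -0.01. Of the members past the threshold in both libraries, Cox7a2l, Uqcrq and Atp5if1 have pseudogene copies of 90 to 98% identity, as Uqcrh does. Atp5mc1 has a copy of 99.8% identity, and no copy of Cyc1 was found. The part of these copies in the ratios was not tested.

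Genes typical of deep barcodes were also found in T barcodes. A list of 10 adhesion and cytoskeleton genes, chosen after the data were seen, stood in T barcodes at a median of 18.4% of its deep level in the FOXP3 humanized library and 11.4% in the WT library. After that share of the deep profile was subtracted, the 6 calls held and 4 members were higher. Such a subtraction by its arithmetic moves ratios away from 0, so it cannot show whether the calls depend on that share. Of 4 natural killer cell markers, 3 had UMIs in T barcodes of the FOXP3 humanized library (529 CPM in sum) and 1, Nkg7, in those of the WT library (469 CPM), with Klrb1c at 0 in both. The part of these in the ratios was not tested.

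**Figure D4:**
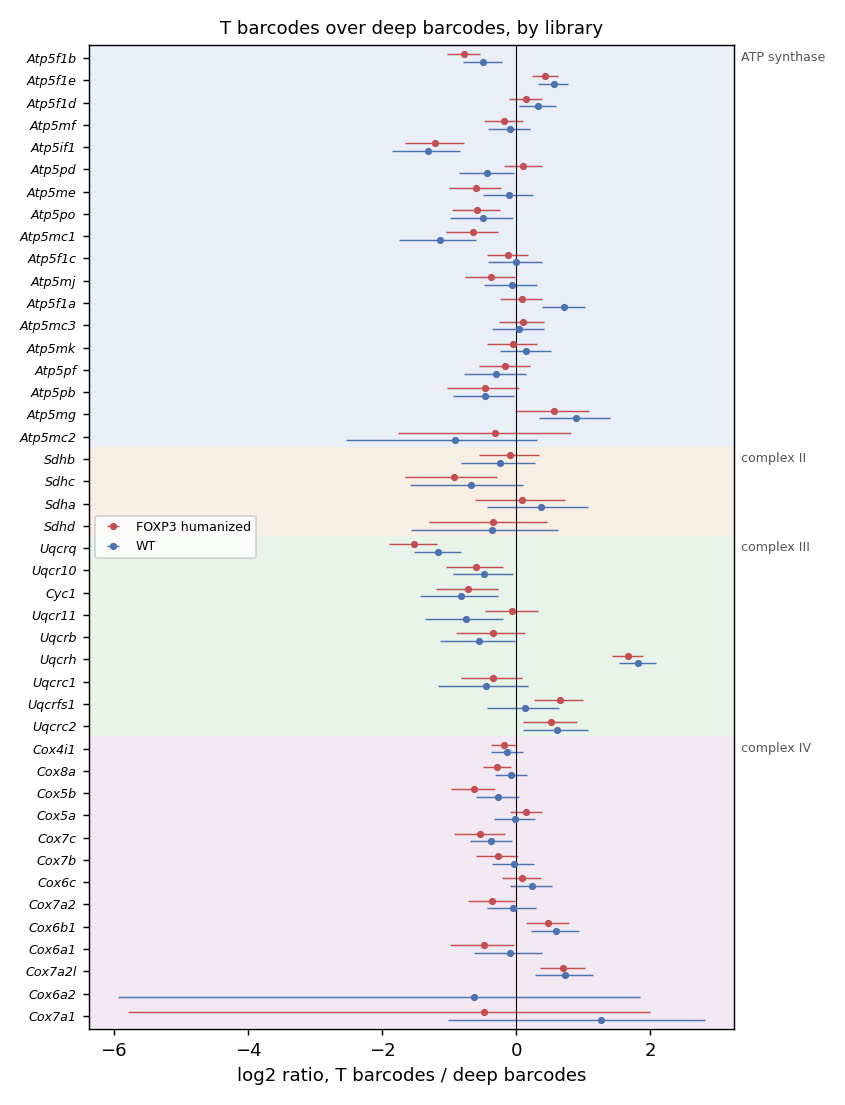
Log2 ratio of T over deep barcodes for each member with its exact 95% counting interval, in the FOXP3 humanized (red) and WT (blue) library. Uqcrh stands alone above 1.5 in both libraries, and Uqcrq and Atp5if1 lie below -1.

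Deep barcodes differed in state, and the members varied with it. Each deep barcode was thinned to 5000 UMIs and ranked by the summed UMIs of a gene list into 4 equal groups, from lowest to highest. Tied barcodes were ordered at random, so neighbouring groups share counts. In the FOXP3 humanized library the lowest and highest groups held 0 to 2 and 6 to 32 hypoxia UMIs per barcode. For G2/M genes they held 0 to 1 and 7 to 49, for mitochondrial genes 0 to 1 and 8 to 88, and for glycolysis genes 6 to 58 and 97 to 277. Over the groups by 15 genes induced in hypoxia, such as Bnip3, Vegfa and Car9, the members summed to 13573, 13233, 12399 and 11748 CPM in the FOXP3 humanized library. In the WT library they summed to 15012, 14386, 13826 and 13203 CPM. The level went down at each step in both libraries, and the highest against the lowest group gave a log2 ratio of -0.21 (interval -0.22 to -0.20) in the FOXP3 humanized and -0.19 (-0.20 to -0.17) in the WT library. The median of all genes was -0.02 and 0.01. Ribosomal protein genes took 35.4% of UMIs in the highest and 35.6% in the lowest group of the FOXP3 humanized library, and 33.2% and 33.8% in the WT library. Of 44 members, 36 had ratios below 0 in both libraries and 32 had intervals below 0 in both, against 36.9% and 9.48% of 11740 genes. These were all among the 42 members with at least 10000 deep UMIs, and 48.2% and 26.7% of the 3073 genes of that depth met the same criteria.

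The size of that difference varied with the complex and the gene. Complex III gave -0.28 and -0.22, ATP synthase -0.23 and -0.20, complex II -0.23 and -0.20 and complex IV -0.14 and -0.15 in the FOXP3 humanized and WT libraries. By the rule of 0.32 on the log2 scale and an interval on the same side of 0, 5 members were lower in the FOXP3 humanized library and 5 in the WT library, against 10.5% and 6.63% of all genes, and 0 and 2 were higher, against 7.84% and 7.32%. Atp5mc1 gave -0.46 and -0.35, Sdhb -0.45 and -0.40 and Uqcr11, a small subunit of complex III, -0.43 and -0.40, and these 3 passed in both libraries. Uqcr10 gave -0.43 and -0.32, Cyc1 -0.38 and -0.25, Uqcrc1 -0.25 and -0.33 and Atp5f1d, the δ subunit of ATP synthase, -0.30 and -0.34.

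A few members went the other way. Cox7a2l was the single member with intervals above 0 in both libraries, at 0.21 (0.12 to 0.30) in the FOXP3 humanized and 0.19 (0.08 to 0.30) in the WT library. Cox7a1 gave 0.38 (-0.12 to 0.90) and 0.79 (0.25 to 1.36), and Cox6a2 gave -0.16 (-0.80 to 0.47) and 0.71 (0.17 to 1.27), so the muscle isoforms passed the threshold in the WT library only, and the difference between libraries was not tested. Uqcrh gave 0.01 and 0.00, and Sdha -0.03 and 0.03.

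Ranked by 13 glycolysis genes, the members summed to 13036, 13111, 12786 and 12019 CPM in the FOXP3 humanized library and to 14596, 14435, 13944 and 13452 CPM in the WT library. The log2 ratio of the highest to the lowest group was -0.12 in each library, against a median of all genes of -0.08 and -0.07. Ribosomal protein genes took 34.4% of UMIs in the highest and 36.8% in the lowest group of the FOXP3 humanized library, and 32.6% and 34.3% in the WT library. The part of these shares in the ratios was not tested. By the same rule, 5 and 2 members were lower, against 13.9% and 13.6% of genes, and 0 and 1 were higher, against 4.97% and 5.73%. Small subunits had the lowest ratios. Uqcr10 gave -0.44 and -0.45, Uqcr11 -0.39 and -0.36, Atp5mk -0.33 and -0.31 and Atp5me -0.44 and -0.29 in the FOXP3 humanized and WT libraries. Atp5f1b was the single member with intervals above 0 in both libraries, at 0.13 and 0.10. Atp5f1c (0.15 and 0.07), Uqcrc1 (0.17 and 0.10), Uqcrc2 (0.15 and 0.11) and Sdhc (0.17 and 0.10) had intervals that include 0 in the WT library. Other subunits of their size did otherwise, with Atp5po at -0.17 and -0.10, Sdhb at -0.10 in each library and Atp5f1a at 0.09 and -0.02. The ratios of the 44 members in one library tracked those in the other, with a Pearson correlation of 0.93 over genes, given as a description.

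The summed members differed less between groups in the other rankings, where the median of all genes lay further above 0. Over 6 mitochondrially encoded partners of these complexes, the highest against the lowest group gave -0.07 (-0.09 to -0.06) in the FOXP3 humanized and -0.04 (-0.06 to -0.03) in the WT library, while the median of all genes was 0.13 and 0.11. Over 15 genes of the G2/M phase it gave 0.03 (0.02 to 0.04) and -0.03 (-0.05 to -0.02), while the median of all genes was 0.15 and 0.14. From the lowest to the highest group, the ribosomal protein share went from 37.1% to 33.4% (FOXP3 humanized) and 34.6% to 31.7% (WT) in the G2/M ranking. In the mitochondrial ranking it went from 36.9% to 35.0% and from 34.5% to 32.8%. The part of these shares in the ratios was not tested. In the mitochondrial ranking, 1 member was higher and 0 lower in the FOXP3 humanized library, against 19.3% and 1.66% of genes, and 0 were higher and 2 lower in the WT library, against 16.3% and 2.17%. The higher one was Uqcrb at 0.37 (0.27 in the WT library), and the lower ones were Cox7a1 at -0.79 and Cox6a2 at -0.55 (-0.17 and -0.32 in the FOXP3 humanized library). In the G2/M ranking, 0 members were higher and 1 lower in the FOXP3 humanized library, against 23.3% and 4.77%, and 0 were higher and 0 lower in the WT library, against 22.2% and 5.19%. The lower one was again Cox6a2, at -0.61 (-0.30 in the WT library).

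**Figure D5:**
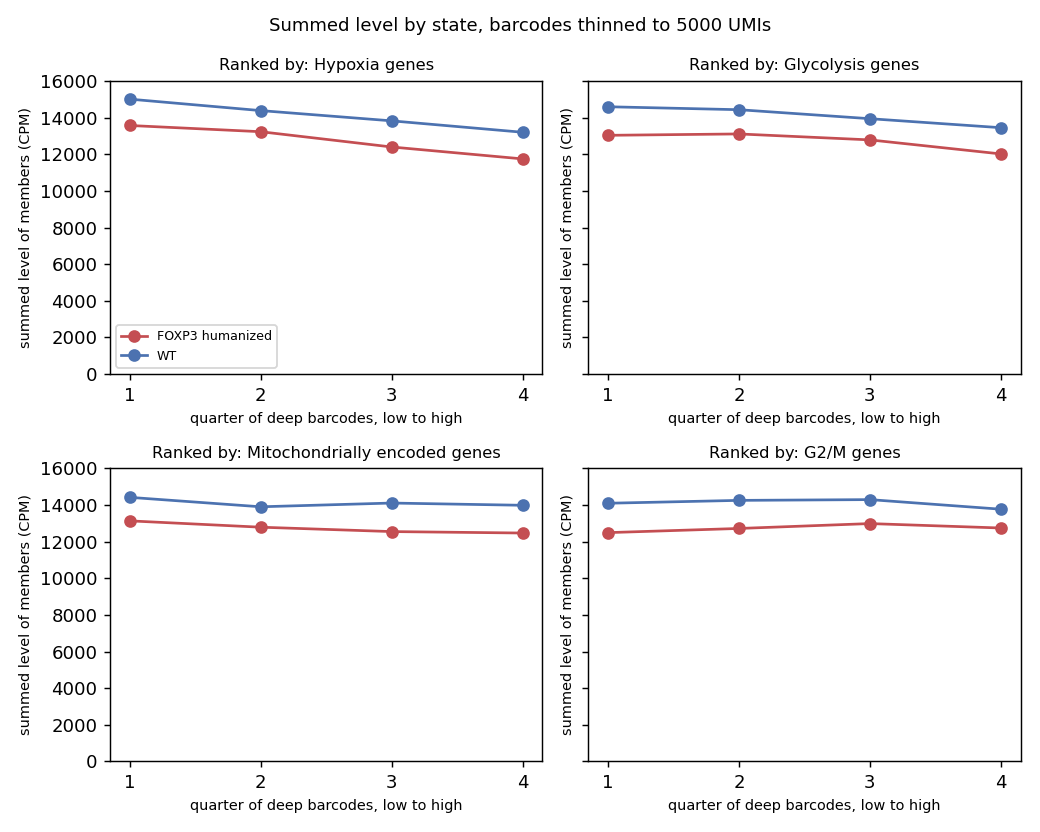
Summed level of the members, in CPM, over 4 equal groups of deep barcodes ranked from low to high by each of 4 gene lists, after each barcode was thinned to 5000 UMIs, in the FOXP3 humanized (red) and WT (blue) library. The lines go down at each step of the hypoxia ranking, reaching 11748 CPM in the highest group of the FOXP3 humanized library, and stay nearly level over the mitochondrial and G2/M rankings.

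Within the thinned deep barcodes ATP synthase and complexes III and IV varied together in part, and complex II did so less. The summed UMIs of ATP synthase had a Pearson correlation of 0.34 with complex III, 0.33 with complex IV and 0.15 with complex II over 9671 barcodes of the FOXP3 humanized library, and of 0.32, 0.32 and 0.12 over 6705 barcodes of the WT library. Complex III with complex IV gave 0.28 in the FOXP3 humanized and 0.26 in the WT library. Complex II gave only 0.097 and 0.082 with complex III, and 0.055 and 0.047 with complex IV. With complex I subunits, all members together gave 0.53 and 0.51. With the mitochondrially encoded partners ATP synthase gave -0.07 and -0.02, and with cytosolic ribosomal protein genes -0.21 and -0.11. These are descriptions over barcodes that share a library and a fixed total.

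Most members were more even across barcodes than other genes. The squared coefficient of variation beyond counting noise, over genes with a mean of at least 0.5 UMIs in thinned barcodes, had a median of 0.111 over 38 members and 0.152 over 1143 genes in the FOXP3 humanized library, and of 0.105 over 38 members and 0.151 over 1233 genes in the WT library. Small complex III subunits were the least even: Uqcrb gave 0.289 and 0.191, Uqcr11 0.217 and 0.252, Uqcr10 0.220 and 0.196 and Uqcrq 0.200 and 0.191 in the FOXP3 humanized and WT libraries. The most even included Uqcrc2 (0.0474 and 0.0793) and Atp5pd (0.0534 and 0.0501). The rare isoforms Cox6a2 (3.99 and 3.59) and Cox7a1 (5.11 and 2.58) lay far above all of these, below the mean needed for that comparison.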

How the data were processed

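Droplet cDNA of cells from MC38 tumours of 1 FOXP3 humanized and 1 WT library was analysed. Per the file headers, the deposited matrices hold UMI counts per gene and barcode made by the authors with PISA 1.0; per the submitters' processing notes the build is GRCm39. The aligner and the handling of reads with several matches are not given here, no doublet filter is stated, and no doublets were removed. The members, gene lists and comparisons were chosen with earlier results of these data known. UMIs were summed over deep barcodes (140575771 in the FOXP3 humanized and 129144384 in the WT library) and T barcodes (279949 and 185429), scaled to 1000000, and compared as log2 ratios with exact conditional 95% intervals; levels have exact Poisson intervals. All genes with at least 20 UMIs were compared in the same way. A gene at 0 in 1 sum was set to 3 counts there in ratios between genotypes, classes or groups of barcodes. A call needs a log2 ratio beyond 0.32 (deep barcodes) or 0.58 (T barcodes, T against deep barcodes) and an interval that leaves out 0. Named were the 8 members with the largest ratios between genotypes in each class (at least 100 UMIs in deep or 50 in T barcodes), the 6 highest and 6 lowest of T against deep barcodes (at least 50 T UMIs), members with a distinct role and the isoform families; others named were chosen after their values were seen. Alternatives changed the scaling, depth limits, filters and members, with effects given in the closing section. They used edgeR 4.0.16 and DESeq2 1.42.0 for scaling factors only, in R 4.3.3. Copies were searched with BLAST 2.17.0 (at least 90% identity over 150 bases and 25% of the transcript). Other steps used Python 3.11.15, NumPy 2.4.6 and SciPy 1.17.1. The rule for calls was also run on simulated Poisson counts with planted changes. Those counts have no spread between barcodes or libraries, so they do not bear on the ratios between genotypes.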

Additional observations from a re-analysis of the deposited data

Results flagged for a closer look

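Atp5f1a, the α subunit of ATP synthase, differed between the libraries in opposite directions in the 2 classes of barcodes. In T barcodes it had 87 UMIs (311 CPM) in the FOXP3 humanized and 81 UMIs (437 CPM) in the WT library, a log2 ratio of -0.49 (interval -0.94 to -0.04). In deep barcodes it had 292 CPM in the FOXP3 humanized and 265 CPM in the WT library, a log2 ratio of 0.14 (0.12 to 0.16). The difference between the ratios was not tested, and neither ratio passed the threshold of fold and interval. With trimmed mean scaling, which adds 0.18 to every T ratio, the T interval includes 0, while the deep ratio passes the threshold for higher. Of 41 members compared in both classes, 10 had ratios of opposite sign. Atp5f1a was flagged because both of its intervals leave out 0.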

How the results depend on the processing

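No paired analysis was possible because each genotype has 1 library. In deep barcodes the summed log2 ratio of FOXP3 humanized over WT (-0.15) was 0.090 with trimmed mean and 0.082 with median-ratio scaling, and the median ratio was 0.084 and 0.076. The complexes turned too, to 0.13 and 0.12 for ATP synthase, 0.23 and 0.22 for complex II, 0.065 and 0.057 for complex III and 0.043 and 0.035 for complex IV. The counts became 4 and 5 lower and 8 higher with each. Scaled without mitochondrial and ribosomal protein UMIs the sum was -0.11 and complex II 0.030. The sum was -0.147 thinned to 5000 UMIs, -0.145 in barcodes of 10000 or more UMIs, and -0.093 with 4 lower without members that have close copies.

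In T barcodes the same scalings gave a sum of -0.054 each, 0.095 each for complex II, 0.11 each for complex III, 2 lower each, and 3 and 2 higher. With at least 2 CD3 UMIs 1 was higher, and under 3000 UMIs complex II gave 0.024. For T over deep barcodes, trimmed mean scaling gave -0.67 in the FOXP3 humanized and -0.61 in the WT library (20 lower, 1 higher), and scaling without mitochondrial and ribosomal protein UMIs gave -0.29 and -0.25 (9 lower, 1 higher). With at least 2 CD3 UMIs 1 was higher, and 4 were after subtraction of the deep profile. Requiring 2 CD3 UMIs ended the calls of Atp5mc1, Cox7a2l and Cyc1, and both scalings ended that of Cox7a2l.

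Between the highest and lowest 10% of barcodes the ratios were -0.095 and -0.073 (mitochondrial), -0.28 and -0.24 (hypoxia), -0.14 (glycolysis, FOXP3 humanized) and -0.0051 and -0.063 (G2/M). Thinned to 10000 UMIs they were -0.063 and -0.018 (mitochondrial), -0.23 (hypoxia, FOXP3 humanized), -0.11 (glycolysis, FOXP3 humanized), and 0.013 and -0.052 (G2/M). Causes of these shifts were not tested. Subtraction of an epithelial share was not run, since Cdh1, Krt8 and Krt18 had 0 UMIs in T barcodes. Few UMIs limit the T barcodes, and 1 library per genotype limits every ratio between genotypes.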

Other observations

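Barcodes in neither class carried the members at similar levels. Those under 5000 UMIs without a CD3 UMI numbered 1038 in the FOXP3 humanized and 777 in the WT library, and the members summed to 12034.5 and 13008.5 CPM in them. Those with at least 5000 UMIs and a UMI of CD3 genes or Ptprc numbered 223 and 113, with 13086 and 14744 CPM. The pseudogene Cox5b-ps, which was left out of the members, had 4687 UMIs in FOXP3 humanized and 6153 UMIs in WT deep barcodes, a log2 ratio of -0.51 (interval -0.57 to -0.46), beside -0.30 for Cox5b.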
